A study of Homo sapiens with 48 samples.

Results

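Set C comprised 6 of the 48 K562 samples of this study, 3 treated with imatinib and 3 mock-treated, which were taken by the letter C in their titles. The study measured RNA on Affymetrix arrays in 8 lettered sets of this layout, and what the letters stand for is not given. The cells, K562, are a long-established line grown from a human chronic myeloid leukaemia, and their growth depends on the fusion kinase BCR-ABL1. The imatinib samples received 1 micromolar of the drug for 24 hours, and no exposure time is given for the mock samples. In the labels, a keyword field calls the imatinib samples mock treated, against their titles and descriptions, which were followed here. Per the labels, mock RNA was isolated with Trizol and then a column kit, imatinib RNA with the column kit alone. Mock targets also received the full amount of RNA spike controls and imatinib targets a reduced one. Treatment, isolation and spike amount cannot be told apart in any of them. Separate cultures are not named for the 3 samples of a group. Each p-value therefore measures only how these samples vary, and that variation may be technical.

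BCR-ABL1 is a constitutively active tyrosine kinase that signals through STAT5, the RAS-ERK cascade and PI3K, and imatinib blocks its ATP-binding pocket. K562 cells sit at an early stage of the erythroid and megakaryocytic branch and can be pushed towards haemoglobin production. Maturing erythroid cells switch on heme synthesis, globins and a membrane skeleton under transcription factors such as GATA1, TAL1 and KLF1, and switch off progenitor factors such as GATA2 and MYB.

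The samples were read as deposited log2 values, and a difference of 1 on this scale is a 2-fold change. Genes that mark K562 were well above the median level of 6.08 in the mock samples. The embryonic globin HBE1 stood at 12.81, 12.82 and 12.72, the transferrin receptor TFRC at 13.17, 13.11 and 13.10, and GATA1 at 9.26, 9.25 and 9.12. Among markers of other blood cells, 0 of 12 monocyte and granulocyte genes had a set C mean at or above that level. So did 6 of 11 T cell genes and 3 of 7 B cell genes, against 57.3% of all genes. The highest mock means in the T and B cell lists were 7.62 for CD3D and 7.19 for CD22. Replicates differed by a median SD of 0.084 in mock and 0.101 in imatinib samples. Mock replicate 1 stood apart from mock replicates 2 and 3, which correlated at 0.9983 with each other and at 0.9947 with it across probe sets. Imatinib replicates 2 and 3 were the least alike, at 0.9903. The spike controls differed by -0.17 (27 probe sets, exact permutation p = 0.20, two-sided, smallest possible p 0.10), against a planned -1.

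Imatinib samples differed from mock in 8654 of 22215 probe sets (39%, limma, Benjamini-Hochberg adjusted p under 0.05), of which 4190 (18.9%) were higher and 4464 (20.1%) lower. With each gene read from its probe set of highest mean level, 5040 of 11963 genes (42.1%) passed, 2485 (20.8%) higher and 2555 (21.4%) lower. Large changes leaned downwards: 216 genes (1.81%) rose and 484 (4.05%) fell at least 2-fold. Scaling moved this balance, since 48.4% of called probe sets were higher as deposited and 37.8% after each array was centred on its median. Fewer were called when mock replicate 2 (5324) or mock replicate 3 (5450) was left out. Of the 1184 probe sets called at 2-fold or more (356 higher, 1.6%, and 828 lower, 3.73%), 1181 had the same sign in every other set.

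The largest rise was in ALAS2, the erythroid form of the first enzyme of heme synthesis. Its level was 6.33, 6.10 and 6.23 in the mock samples and 11.72, 11.80 and 11.73 in the imatinib samples. The groups lay far apart, with a difference of 5.53 ± 0.07 (SE, 3 against 3 samples), or 46.1-fold, and an adjusted p of 4.44e-08. SLC4A1, the anion exchanger of the red cell membrane, read 6.92, 6.91 and 6.46 in mock and 11.38, 11.44 and 11.59 in imatinib samples, a rise of 4.71 ± 0.13 (adjusted p = 4.58e-07). The water channel AQP1 rose by 4.49 ± 0.09, from 5.67 to 5.71 in mock to 9.99 to 10.30 with imatinib, and its other probe set gave 4.02. Further rises belonged to LBH (4.70), a transcriptional cofactor, COL18A1 (4.29), which encodes a basement membrane collagen, and RELN (3.55), an extracellular matrix protein. PPOX, a late enzyme of heme synthesis, rose by 3.88, and the mitochondrial iron importer SLC25A37 by 3.72. HBZ, the embryonic alpha-like globin, rose by 3.46 from an already high 10.83 to 11.02. KEL, a blood group protease, rose by 3.31, TSC22D1 by 3.26, the membrane skeleton gene ADD2 by 3.19, C11orf21 by 3.15, FEZ1 by 3.0 and FECH, which inserts iron into heme, by 2.92. The other probe sets of ADD2 changed by 0.79 and 0.82 and that of FEZ1 by 0.20, well below the values above. None of these 15 genes had overlapping groups, which the rule that named them required; over all genes 29.5% were higher and 25.4% lower without overlap.

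**Figure D1:**
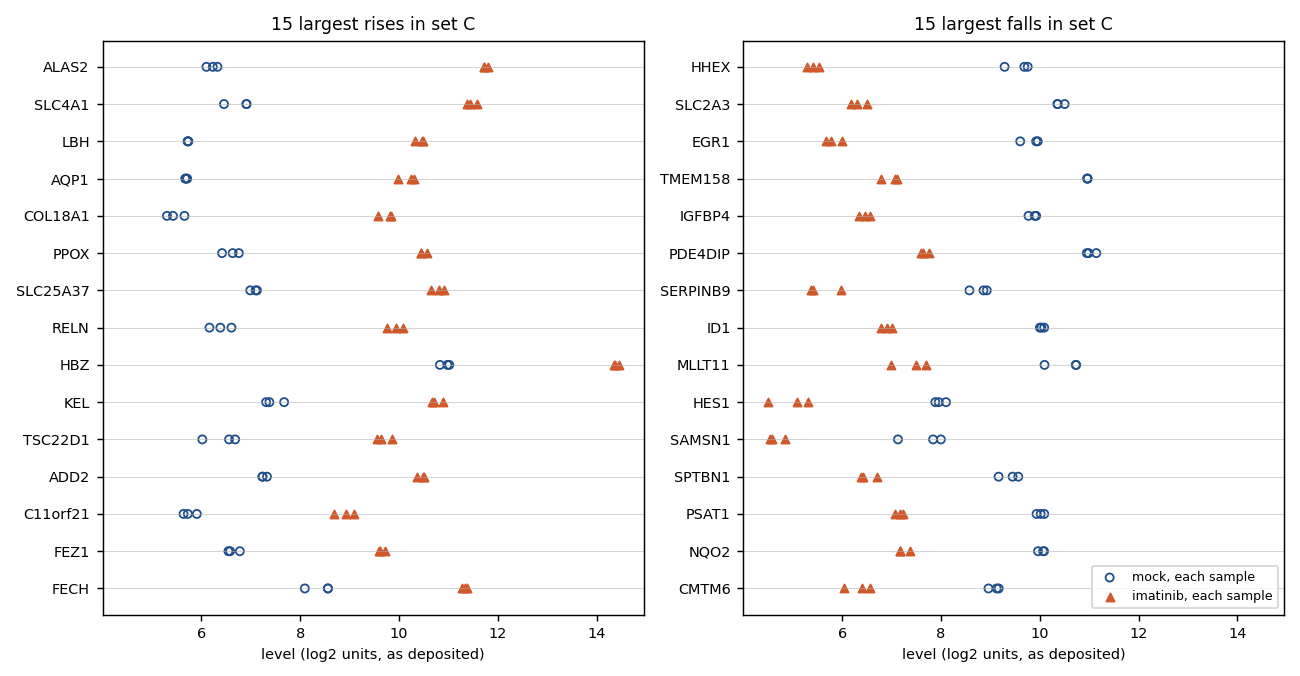
Levels (log2 units, as deposited) of the 15 genes with the largest rises (left) and the 15 with the largest falls (right) in set C. Each mock sample is an open circle and each imatinib sample a triangle. In every row the 3 imatinib samples lie entirely above or below the 3 mock samples.

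The sequence upstream of ALAS2 and of KEL is shown because these genes were among the largest rises and their 250 bases before the start hold the letters AGATAA or TGATAA, which GATA factors bind. Capitals mark a match on either strand, so TTATCT is AGATAA on the other strand. Both are RefSeq sequences of build GRCh38.p14, written 5′ to 3′ along the gene.
ALAS2, minus strand, chrX:55030978-55031227: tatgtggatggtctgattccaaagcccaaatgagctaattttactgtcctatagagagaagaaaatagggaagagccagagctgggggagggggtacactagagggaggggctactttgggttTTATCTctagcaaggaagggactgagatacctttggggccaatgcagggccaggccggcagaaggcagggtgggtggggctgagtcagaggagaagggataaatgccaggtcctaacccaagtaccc
KEL, minus strand, chr7:142962364-142962613: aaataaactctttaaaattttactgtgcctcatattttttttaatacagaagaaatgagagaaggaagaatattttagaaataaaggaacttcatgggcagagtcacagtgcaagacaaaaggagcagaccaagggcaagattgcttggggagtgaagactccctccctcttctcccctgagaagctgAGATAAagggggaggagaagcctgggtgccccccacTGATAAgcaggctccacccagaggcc
In ALAS2 the match began 127 bases before the start, at position -127, and in KEL the matches began at -62 and -26.

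Of the 15 largest rises, 12 had a promoter in the table and 2 of them held these letters (16.7%), against 9.83% of 9562 matched genes on the array and 14.9% of 27305 promoters of the same length. Of the 15 largest falls 2 of 14 held them (14.3%). Among erythroid membrane genes 5 of 17 (29.4%) held them. CCNCNCCC, the letters of the KLF1 motif, were in 11 of the 12 (91.7%), against 67.7% of matched array genes. They were also in 10 of 14 of the largest falls (71.4%), 16 of 18 ribosome biogenesis genes (88.9%) and 17 of 21 ATF4 response genes (81%), lists whose members mostly fell. These shares describe letters in a window and show no binding.

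Erythroid genes rose together, while over all genes 20.8% were higher and 21.4% lower. Of 21 measured genes for the red cell membrane and surface, 19 rose and 0 fell; their median change was 1.84, against 0.05 over all genes. They included the Rh protein RHD (2.42), the blood group gene ERMAP (2.48), protein 4.2 EPB42 (2.50), the actin-capping TMOD1 (2.25) and dematin DMTN (1.84), while CD36 (0.00) and the urea transporter SLC14A1 (-0.01) did not pass. Of 8 heme synthesis genes 7 rose (median 1.65), and ALAS1, the form of the first enzyme used outside erythroid cells, fell by 0.47. All 6 measured globin-list genes rose with a median of 1.76: HBZ, HBD (2.20), HBQ1 (1.31), HBE1 (1.24), HBB (1.08) and the alpha-globin chaperone AHSP (2.77). Near-identical globin copies can share probe signal, and HBA1, HBA2, HBG1 and HBG2 were not analysed here. Iron genes were more mixed, with 7 of 10 higher and 1 lower (median 0.41). TFR2 rose by 1.99, and TFRC by 0.24 at a level of 13.10 to 13.44 in all 6 samples.

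Transcription factors of the lineage moved in opposite directions. Of 17 measured, 9 rose (52.9%) and 4 fell (23.5%), against 20.8% and 21.4% of all genes, so the share that fell was near that of all genes. The higher count was 7 after centring and 7 without imatinib replicate 3. KLF1, the erythroid Kruppel-like factor, read 8.30, 8.30 and 8.25 in mock and 10.71, 10.71 and 10.77 with imatinib, a rise of 2.44 ± 0.06. TAL1 rose by 2.52, GFI1B by 2.16 and LMO2 by 1.27. GATA1 itself rose by only 0.24 ± 0.07 (adjusted p = 0.0298). HHEX, a homeobox factor of early progenitors, fell by 4.16 ± 0.13 (17.9-fold) from 9.29, 9.76 and 9.69 to 5.41, 5.54 and 5.30. This was the largest fall with each gene read from 1 probe set, and the other probe set of HHEX gave -3.17. GATA2 (-2.41) and MYB (-2.35) fell too, though a second probe set of MYB gave -0.24. Of 14 megakaryocyte and platelet genes 4 were higher (28.6%) and 1 lower (7.14%), against 20.8% and 21.4% of all genes. Their median was 0.16, and 2 were higher without imatinib replicate 3. In that list TUBB1, the platelet beta-tubulin, read 6.08, 6.20 and 5.89 in mock and 7.68, 8.58 and 8.01 in imatinib samples, and ITGA2B differed by 0.08 and did not pass.

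After HHEX, the largest falls were in SLC2A3 (-4.08), a glucose transporter, EGR1 (-4.01), an immediate early transcription factor, and TMEM158 (-3.97). EGR1 read 9.60, 9.93 and 9.96 in mock and 5.77, 5.68 and 6.0 in imatinib samples, so its groups were well apart. Its other probe set gave -1.62. Next came IGFBP4 (-3.41), an IGF-binding protein, PDE4DIP (-3.36), the granzyme B inhibitor SERPINB9 (-3.20), ID1 (-3.14), MLLT11 (-3.13) and the Notch target HES1 (-3.02). SAMSN1 (-3.0), the spectrin SPTBN1 (-2.89), the serine synthesis enzyme PSAT1 (-2.86), NQO2 (-2.80) and CMTM6 (-2.75) completed the 15. Other probe sets gave -0.05 to -2.48 for PDE4DIP, 0.09 to -1.27 for SPTBN1, and -2.45 and -4.82 for SLC2A3. The last value was the largest fall over all probe sets.

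Targets of STAT5 and of the ERK cascade mostly fell. Of 16 STAT5 targets 9 fell (56.2%) and 3 rose (18.8%), against 21.4% and 20.8% of all genes (median -0.71). CISH, a cytokine signalling inhibitor, read 9.79, 9.69 and 9.62 in mock and 7.43, 7.49 and 7.36 with imatinib, a change of -2.28 ± 0.07. SOCS2 (-2.45), cyclin D2 (CCND2, -2.36) and the survival kinase PIM2 (-1.72) also fell, whereas cyclin D3 (CCND3) rose by 1.19. Without imatinib replicate 3 only 1 STAT5 target was higher. Of 23 ERK feedback and early response genes 18 fell (78.3%) and 0 rose, against the same shares of all genes (median -0.92). Those that fell included the ERK inhibitors SPRY4 (-2.33) and SPRED2 (-1.86), ATF3 (-2.31) and MYC (-1.51). The ERK phosphatase DUSP6 (0.08) and SPRY2 (-0.15) did not pass. MYC and CCND1 stand in both of these lists.

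Among genes for proteins that imatinib binds, and BCR, 4 of 11 rose (36.4%) and 2 fell (18.2%), against 20.8% and 21.4% of all genes (median 0.17, mean -0.26). The 2 that fell were LYN, a SRC family kinase (-2.25 ± 0.13), and NQO2, a quinone reductase (-2.80 ± 0.08). LYN read 9.75, 9.75 and 9.63 in mock and 7.57, 7.65 and 7.16 with imatinib, and its other probe sets gave -1.70 and -1.89. ABL1 rose by 0.30, DDR2 by 0.53 and LCK by 0.45. BCR differed by 0.17 ± 0.07 (adjusted p = 0.101) and KIT by 0.01, so neither passed. In the wider group of 19 genes for SRC family kinases, adaptors and other signalling proteins, 5 rose (26.3%) and 7 fell (36.8%). The SRC family kinase YES1 stood at -2.28, and of the other signalling genes JAK2 stood at 1.12 and STAT5A at -0.61. The group's median was 0.01 as deposited and -0.05 after centring, and its mean -0.17.

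Genes that serve protein synthesis fell in most lists, ribosomal proteins aside, while over all genes 20.8% were higher and 21.4% lower. Of 21 ribosome biogenesis genes 19 fell and 0 rose, led by the nucleolar helicase DDX21 (-1.93), while 25 ribosomal protein genes had a median of 0.06 with 2 higher and 1 lower. Of 25 amino acid response genes under ATF4, 23 fell (median -1.19), including PSAT1, TRIB3 (-2.05) and asparagine synthetase ASNS (-2.03). ATF4 itself fell by 0.27. Of 16 aminoacyl-tRNA synthetases 15 fell, with WARS1 at -2.37, and EPRS1 rose by 0.24. ER chaperones fell in 16 of 17 cases (median -0.70), among them HSPA5 (-2.05) and HSP90B1 (-2.03). Cytosolic and mitochondrial heat shock genes fell in 10 of 13 (median -0.55), and HSF1, their transcription factor, rose by 0.64. Proteasome subunits fell in 18 of 25 (median -0.36), with PSMD12 at -1.58.

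Mitosis genes fell in 30 of 31 cases with a median of -0.75. The mitotic kinase PLK1 (-1.48), CDC20 (-1.53) and cyclin B1 (CCNB1, -1.26) fell, and UBE2C (0.27) was the member that did not pass. DNA replication genes were split, with 5 of 40 higher (12.5%) and 12 lower (30%), against 20.8% and 21.4% of all genes. Their median was -0.11, which turned to 0.04, with 13 higher and 8 lower, after quantile normalization. Nucleotide and polyamine synthesis genes fell in 16 of 19 (median -0.76), with spermidine synthase SRM at -1.77. Of 21 CDK inhibitor, FOXO and quiescence genes 10 rose (47.6%) and 2 fell (9.52%), against the same shares of all genes (median 0.37). CITED2, a transcriptional coregulator, rose by 2.91, the CDK inhibitor CDKN1C by 1.91, YPEL5 by 1.61 and FOXO3 by 1.28. Among the other measured CDK inhibitors CDKN2A rose by 0.51, while CDKN1A (-0.19), CDKN1B (0.37) and CDKN2D (0.03) did not pass. The 2 genes that fell were CCNG2 (-0.60) and TOB1 (-0.65). Replication-type histones rose in 8 of 18 (44.4%) and fell in 0 (median 0.19), with H2AC8 at 1.19. The higher count was 6 after centring and 6 without mock replicate 1.

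Glycolysis and glucose uptake genes fell in 15 of 21 (71.4%) and rose in 3 (14.3%), against 21.4% and 20.8% of all genes (median -0.46). The pyruvate kinase PKM fell by 2.57, although its other probe set gave -0.19, and hexokinase HK2 fell by 1.80. The transporters parted: SLC2A1, the main glucose transporter of red cells, rose by 1.46 and SLC2A3 fell by 4.08. Cholesterol synthesis genes fell in 8 of 16 (50%) and rose in 2 (12.5%), with a median of -0.60, MSMO1 at -1.69 and HMGCS1 at -1.65. Respiratory chain genes had 3 of 29 higher (10.3%) and 10 lower (34.5%), against 20.8% and 21.4% of all genes. Their median of -0.04 became 0.08, with 8 higher and 7 lower, after quantile normalization. CYCS, which encodes cytochrome c, fell by 1.54. Of 24 lysosome and autophagy genes 13 rose (54.2%) and 4 fell (16.7%), against the same shares of all genes (median 0.31). Acid ceramidase ASAH1 stood at 2.45, although 1 of its 3 other probe sets gave -0.25, and cathepsin B CTSB at 1.65.

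Smaller groups held a few strong members. In the BCL2 family 2 of 16 rose (12.5%) and 5 fell (31.2%), against 20.8% and 21.4% of all genes. The counts were 4 and 5 after quantile normalization and 4 and 4 without mock replicate 1. Members that fell included PMAIP1 (-2.37), MCL1 (-1.68) and BCL2L1 (-0.96). The family's median of 0.03 turned to -0.03 after centring, and its mean was -0.31. Cytokine genes had 2 of 18 higher (11.1%) and 5 lower (27.8%), against the same shares of all genes, with a median of -0.05. The higher ones were IL1B (0.49) and OSM (0.24), and the lower ones included CXCL8 (-2.55), CXCL3 (-1.91) and TGFB1 (-1.47). The interferon response list was near the background, with 6 of 27 higher (22.2%, all genes 20.8%) and 4 lower (14.8%, all genes 21.4%); its median was 0.12 and its mean -0.03. The 4 that fell were IFITM2 (-1.38), BST2 (-1.11), IFITM1 (-1.01) and IFITM3 (-0.95). Housekeeping genes had 1 of 12 higher (8.33%) and 6 lower (50%), with a median of -0.17.

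Markers of other cell types had list medians between 0.00 and 0.22. Over all genes 20.8% were higher and 21.4% lower. Of 11 T cell genes 5 were higher (45.5%) and 1 lower (9.09%), with a median of 0.22. The mean over the list was 6.12 in mock and 6.23 in imatinib samples. CD3D, a T cell receptor chain, was the lower one, at 7.76, 7.68 and 7.41 in mock and 5.90, 5.60 and 6.73 in imatinib samples. B cell genes had 2 of 7 higher (28.6%, median 0.18). Monocyte and granulocyte genes had 3 of 12 higher (25%) and 1 lower (8.33%), with a median of 0.16, and 0 of the 12 had a set C mean at or above the median level. Without imatinib replicate 3, 1 B cell gene and 1 monocyte and granulocyte gene were higher. Fibroblast and epithelial genes had 0 of 13 higher and 2 lower, which were the keratins KRT8 (-1.91) and KRT18 (-1.23). The part of these markers in the results was not tested.

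**Figure D2:**
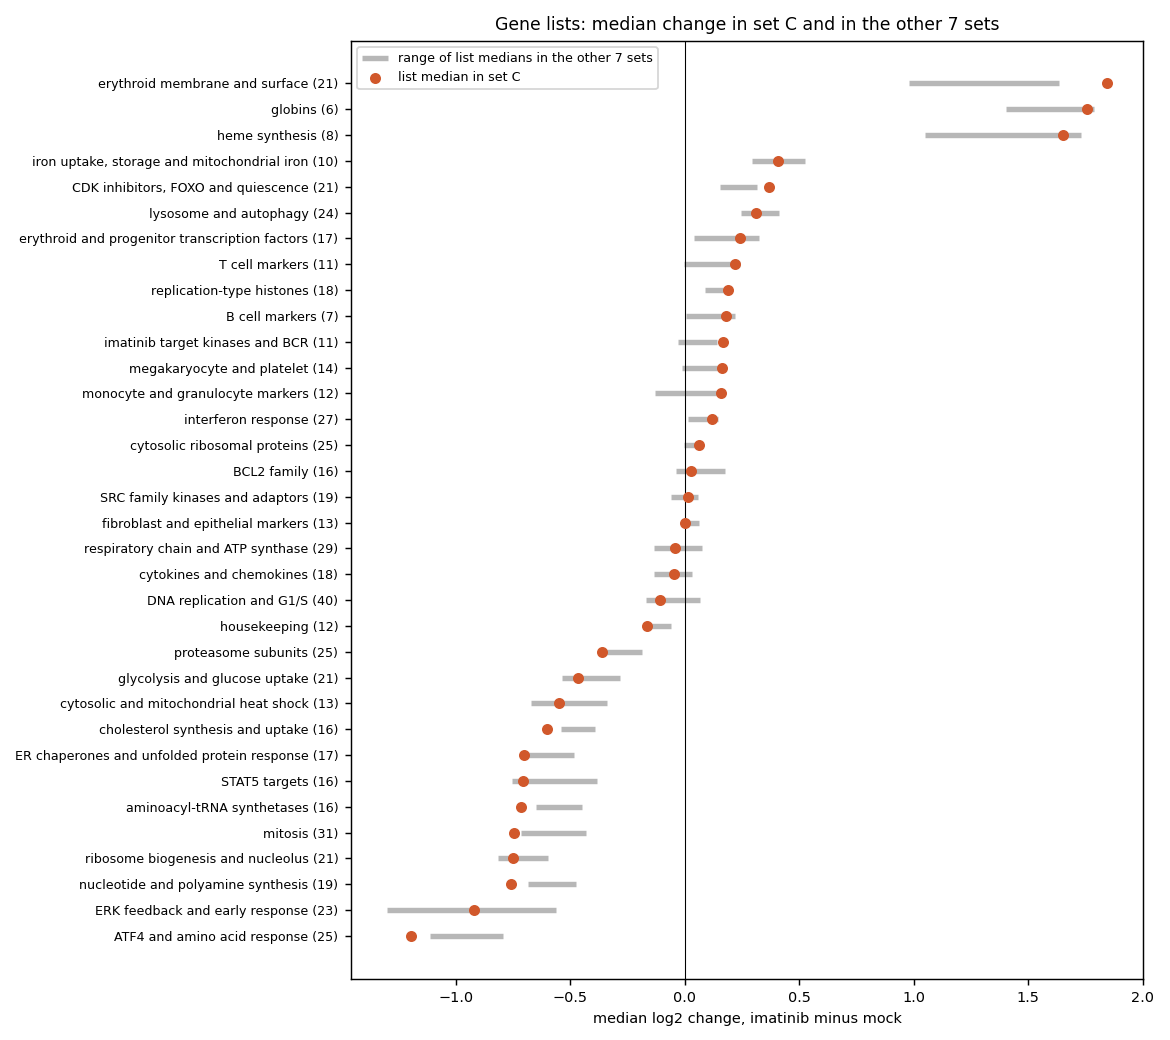
Median log2 change (imatinib minus mock, x axis) of each gene list in set C (point) and the range of the same median over the other 7 sets (bar), with the number of measured genes in brackets. The erythroid membrane median of 1.84 and the amino acid response median of -1.19 lie outside the range of the other sets, while the ribosomal protein median of 0.06 lies near 0.

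How the change in set C differed from the mean change of the other 7 sets (A, B and D to H) was tested over all 48 samples. The changes ran in parallel: across probe sets set C followed the mean of the other sets with r = 0.918 and a slope of 1.12, as a description, and 8411 of its 8654 called probe sets (97.2%) had the sign of that mean. A slope over 1 means that changes in set C were on average larger in size. The test called 1900 of 22215 probe sets (8.55%), 926 higher (4.17%) and 974 lower (4.38%), or 1043 of 11963 genes (8.72%). By size 340 of these genes had a larger fall in set C, 189 a larger rise, 43 a smaller rise, 16 a smaller fall, and 455 moved the other way or had a mean change under 0.1 in the other sets. Of probe sets called, 48.7% were higher as deposited, 61.2% after quantile normalization and 34.3% (432 against 827 lower) when probe sets at or above the median level alone were tested.

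The count of differences depended most on 1 library. Without imatinib replicate 3 of set C, 148 probe sets (0.666%) were called, all of them among the 1900, and 83 genes (0.694%). In the 1043 genes imatinib replicate 3 was the most extreme imatinib sample in the direction of the difference in 852 (81.7%), against 6794 of 11963 over all genes (56.8%). The count was 485 without mock replicate 2, 667 without mock replicate 3 and 3562 without imatinib replicate 2. With the spread between sets as the error, 24 probe sets (0.108%) and 11 genes (0.092%) passed. Set C also differed in the 28S ribosomal RNA control probe sets, which read 6.46, 6.30 and 6.40 in mock and 7.13, 7.05 and 7.49 in imatinib samples. That difference of 0.84 (6 probe sets, exact permutation p = 0.10, the smallest possible) was above the range of the other sets, -0.22 to 0.60. Genes higher in set C than elsewhere had a median mock level of 5.79, and genes lower had 7.62, against 6.37 over all genes. The part of these values in the differences was not tested.

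**Figure D3:**
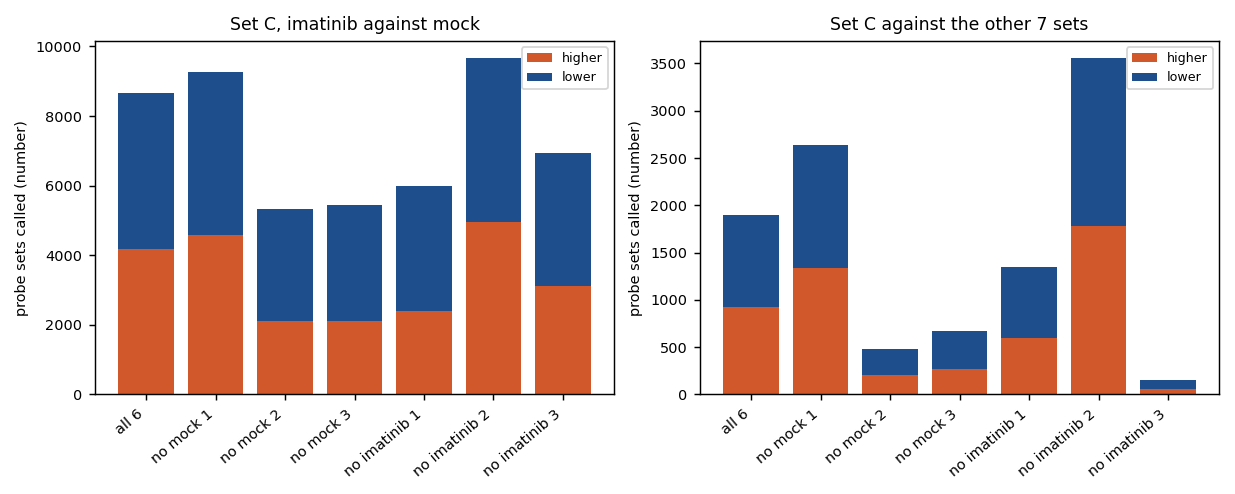
Number of probe sets called (bars, split into higher and lower) in set C alone (left) and in set C against the other 7 sets (right) with all 6 samples of set C and with each left out in turn. The right panel drops from 1900 to 148 without imatinib replicate 3.

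Larger rises included the erythroid genes ALAS2 and KEL. ALAS2 rose by 5.53 in set C and by 4.29 to 5.18 in the others, a difference of 0.70 ± 0.12 (adjusted p = 4.38e-04, and 0.00462 without imatinib replicate 3). KEL rose by 3.31 against 2.02 to 3.13 elsewhere, a difference of 0.78 ± 0.12, and also passed without that replicate (adjusted p = 0.00462). Neither passed with the spread between sets as the error (adjusted p = 0.209 and 0.208). After the other sets' change was multiplied by the slope, KEL still passed (adjusted p = 0.0169) and ALAS2 did not (0.632). C11orf21 differed by 0.73 and passed without imatinib replicate 3, whereas LBH (0.65) had an adjusted p of 0.0505 there. SLC4A1 differed from the mean by 1.18 ± 0.22, but its change of 4.71 lay inside the range of the other sets, whose highest was 4.80. Over the lists, 7 of 21 erythroid membrane genes and 4 of 8 heme genes (ALAS2, PPOX, FECH and ALAD) were called higher and 0 lower, against 4.31% and 4.41% of all genes. Of these, 4 and 4 were called without imatinib replicate 3, and 3 and 0 after slope scaling. In the heme list the adjusted p after scaling was 0.901 for PPOX, 0.235 for FECH and 0.0789 for ALAD.

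Larger falls included HES1, a transcriptional repressor, with -3.02 in set C against a mean of -1.81 and a lowest of -2.76 elsewhere. Its difference of -1.20 ± 0.17 passed without imatinib replicate 3, but its imatinib samples spread from 5.31 to 4.50 and its other 2 probe sets changed by 0.32 and -1.84. LMNB1, which encodes lamin B1 of the nuclear envelope, read 8.95, 9.15 and 9.04 in mock and 7.63, 7.73 and 7.15 with imatinib, a change of -1.54 against -1.01 to -0.61 in the other sets. PIK3CG, a PI3K catalytic subunit, fell by 1.65 against a mean of -0.85, and its other probe set gave -0.48. LEPROTL1 fell by 1.36 against a mean of -0.57. All 4 passed without imatinib replicate 3. Among pathway genes, CISH (-0.64) and PIM2 (-0.74) fell further in set C than in the mean of the other sets. So did SPRY4 (-0.82), ATF3 (-0.67), PSAT1 (-0.68) and LYN (-0.57). Of these, LYN did not pass without imatinib replicate 3 (adjusted p = 0.168). Set G fell nearly as far for CISH (-2.18 against -2.28 in set C) and ATF3 (-2.26 against -2.31). With the spread between sets as the error, none of CISH, PIM2, SPRY4, ATF3, PSAT1 and LYN passed. The limma adjusted p was 0.188 for CISH, 0.217 for ATF3 and 0.168 for PSAT1. After slope scaling CISH and ATF3 passed and PSAT1 did not (adjusted p = 0.0759).

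The named differences were taken from genes whose set C change lay outside the range of the other sets, which held for 40.5% of all genes. Of the 39, 4 also passed with the spread between sets as the error: THOC2, SPATS2L, XRCC2 and LBP, and these 4 passed without imatinib replicate 3 too. XRCC2, a homologous recombination factor, read 7.54, 7.68 and 7.50 in mock and 7.14, 6.78 and 6.67 in imatinib samples. It fell by 0.71 ± 0.12, whereas the other sets ranged from -0.13 to 0.10. THOC2, an mRNA export factor, fell by 1.25 against -0.57 to -0.33 elsewhere, and its other probe set fell by 0.90. SPATS2L fell by 2.01 against -1.37 to -1.08, although its other probe set gave 0.07. LBP, the lipopolysaccharide-binding protein, rose by 0.81 against 0.03 to 0.19, and its other probe set gave 0.03. LIAS, the lipoic acid synthase of mitochondria, fell by 0.63 against a mean of -0.01, and CELP, a pseudogene, rose by 0.94 against 0.12. Both passed without imatinib replicate 3 but not with the spread between sets (adjusted p = 0.0656 and 0.0589).

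**Figure D4:**
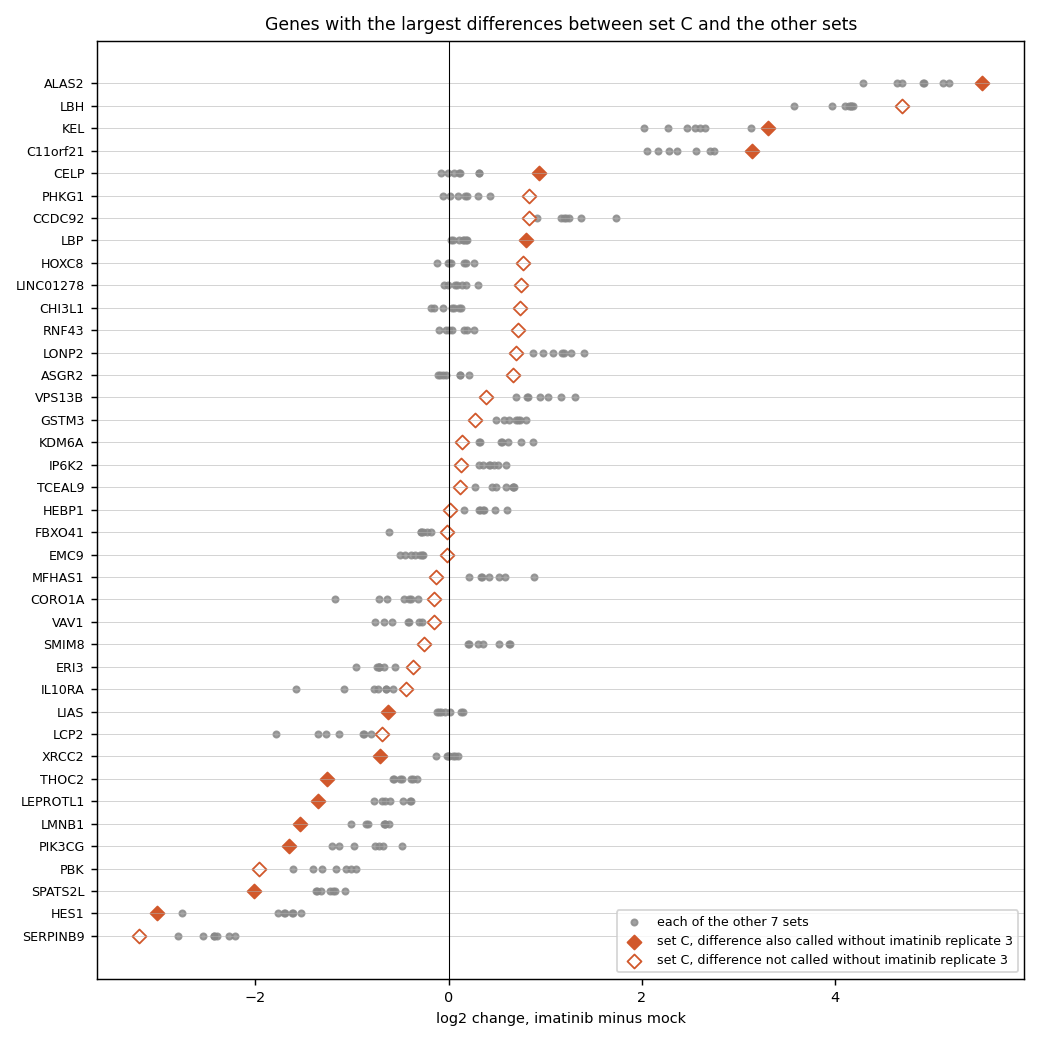
Log2 change (imatinib minus mock, x axis) of the 39 named genes whose change in set C differed from the other sets. Grey points are the other 7 sets, 1 each, and diamonds are set C, filled for the 13 genes also called without imatinib replicate 3.

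None of the 15 named genes with a smaller change in set C passed when imatinib replicate 3 alone was left out. Smaller rises were VPS13B (0.39 against a mean of 0.97), a lipid transfer protein gene, LONP2 (0.69 against 1.14), the peroxisomal protease, CCDC92 (0.83 against 1.27) and the histone demethylase gene KDM6A (0.14 against 0.57), with TCEAL9, GSTM3, HEBP1 and IP6K2. Smaller falls were the adaptor LCP2 (-0.69 against -1.16), the actin-binding coronin CORO1A (-0.15 against -0.59), the interleukin receptor chain IL10RA (-0.44 against -0.86) and the exchange factor VAV1 (-0.16 against -0.49), with ERI3, EMC9 and FBXO41. In CORO1A and VAV1 the imatinib and mock samples of set C overlapped. Genes that moved the other way or were near 0 elsewhere were CHI3L1 (0.74), HOXC8 (0.78), RNF43 (0.72) and ASGR2 (0.66) with higher values, and SMIM8 (-0.25) and MFHAS1 (-0.13) with lower ones. RNF43, SMIM8 and MFHAS1 did not pass in set C alone.

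**Figure D5:**
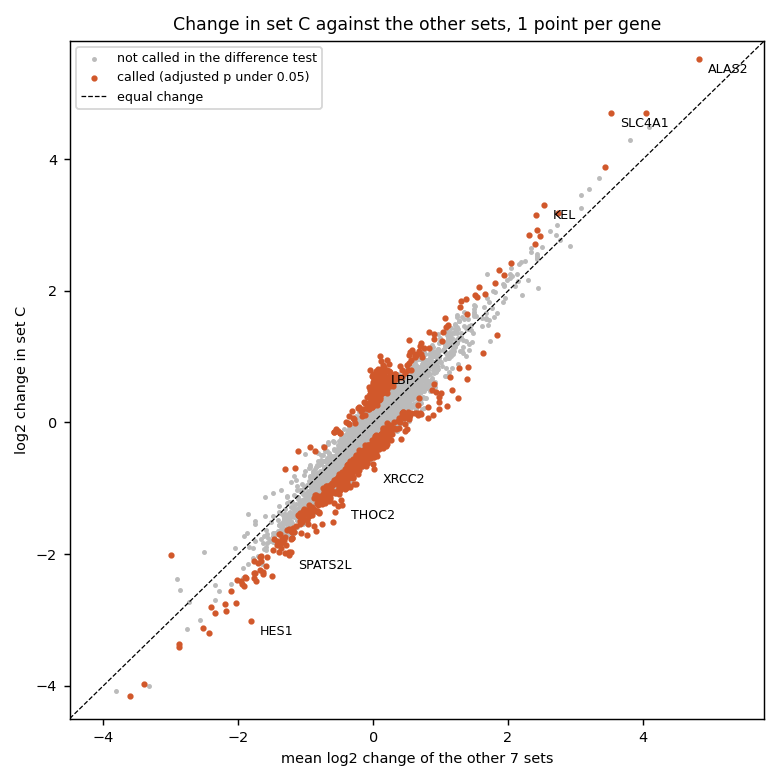
Log2 change in set C (y axis) against the mean log2 change of the other 7 sets (x axis), 1 point per gene, with genes called in the difference test in colour and the line of equal change dashed. Most genes follow the line, and ALAS2 at 5.53 and SLC4A1 at 4.71 lie above it.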

How the data were processed

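The deposited table gives log2 values made by the authors for 22283 probe sets. The log2 scale was read from the values themselves. How background, probe summary and normalization were handled is not given in the sources used here. The values were used as deposited, without the 68 control probe sets. Probe sets were named from the platform annotation and updated to RefSeq GRCh38.p14 (19065 with 1 symbol, 1043 with several, 2107 with none; 19053 matched), and a gene was read from its probe set with the highest mean over 48 samples. Both comparisons used limma 3.58.1 (R 4.3.3; lmFit, eBayes, two-sided, Benjamini-Hochberg, threshold 0.05). Set C was fitted alone, and the change in set C minus the mean of the other 7 sets in a fit of 16 groups. Both fits were tested on simulated data. An exact permutation test compared the controls. Errors are standard errors. Precision is limited by the number of arrays. Figures were drawn with matplotlib 3.10.9.

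Named genes had a set C mean at or above the median level. They were the 15 largest rises and falls without overlap of groups, the members with the smallest p in each list (4 at most), the 8 largest differences from the other sets in each class of change among those outside their range, the imatinib targets with BCR, and the marker genes. Other genes given with values are list members chosen after their values were seen. Members, gene lists and rules were chosen with earlier results of these data known. The ribosomal RNA check, the joint omission of mock replicate 1 and imatinib replicate 3, and slope scaling with the spread between sets were added after seeing the data. Alternatives were centring, quantile normalization, a level filter, a trended prior, a replicate block, pooled spread and leaving out each sample or set.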

Additional observations from a re-analysis of the deposited data

Results flagged for a closer look

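The change in 39 named genes differed between set C and the mean of the other 7 sets by a test of the difference itself (limma, adjusted p under 0.05), with a set C value outside the range of the other sets. Values are the log2 change in set C minus that mean. Of these, 13 also passed without imatinib replicate 3. The change was higher in set C for ALAS2 (0.70), KEL (0.78), C11orf21 (0.73), CELP (0.82) and LBP (0.68). It was lower for HES1 (-1.20), PIK3CG (-0.80), THOC2 (-0.79), LEPROTL1 (-0.79), LMNB1 (-0.78), SPATS2L (-0.76), XRCC2 (-0.72) and LIAS (-0.62).

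The other 26 did not pass when imatinib replicate 3 alone was left out. With mock replicate 1 left out as well, 18 of all the named differences passed, so some of these 26 passed there. The difference was positive for LBH (0.65), PHKG1 (0.67), LINC01278 (0.65), LCP2 (0.46), CORO1A (0.44), IL10RA (0.42), ERI3 (0.35), EMC9 (0.34), VAV1 (0.33), FBXO41 (0.26), CHI3L1 (0.75), HOXC8 (0.70), RNF43 (0.65) and ASGR2 (0.64). It was negative for SERPINB9 (-0.76), PBK (-0.74), VPS13B (-0.58), LONP2 (-0.45), TCEAL9 (-0.43), CCDC92 (-0.43), KDM6A (-0.42), GSTM3 (-0.40), HEBP1 (-0.35), IP6K2 (-0.31), SMIM8 (-0.66) and MFHAS1 (-0.60).

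The 28S ribosomal RNA control probe sets, which the comparisons of genes did not use, were 0.84 higher in imatinib than in mock samples of set C.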

How the results depend on the processing

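Of the 190 named genes 162 passed in set C, 13 of these lost significance under at least 1 alternative and 0 changed direction. All 39 named differences from the other sets lost significance under at least 1 alternative and 0 changed direction. Leaving out 1 sample of set C in turn gave 5324 to 9681 called probe sets for imatinib against mock and 148 to 3562 for the difference from the other sets. At 2-fold or more, 1184 remained called for imatinib against mock. For the difference, the counts were 1259 among probe sets at or above the median level, 290 with mock replicate 1 and imatinib replicate 3 both left out, 24 with the spread between sets as error and 0 with slope scaling added to that. At an unadjusted p under 0.05 these last limma fits called 3528 and 2373. Leaving out 1 other set gave 1383 to 2411. The cause of these shifts was not tested.

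The replicate numbers were not used to pair the samples. The rule for pairing asked for a minimum correlation between the deviations of same-numbered mock and imatinib samples in every replicate. The correlations were 0.265, 0.455 and -0.278. This rule cannot show whether the samples were handled in pairs. With the replicate block the counts were 9083 and 1591. The normalization and the spread between cultures are unknown, and 3 samples a group limit the precision.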
